A study of Mus musculus with 13 samples.

Results

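The genes described here are 38 named genes of the cell cycle and of DNA replication, chosen by symbol, out of 22609 genes in each of 2 expression tables of mouse tissue. All 38 were in both tables and all 38 passed the filters on low values. They were divided by textbook role into an S-phase class of 19 genes (cyclin E and E2F factors, origin licensing and helicase, fork clamp and nucleotide supply, chromatin copying) and a G2/M class of 19 genes (cyclins A and B with Cdk1, mitotic transcription factors, mitotic kinases and checkpoint, kinetochore and motors, Mki67 and Top2a). Total RNA of C57BL/6 mice was made into stranded mRNA libraries. One tissue was visceral fat after HFD feeding (HFD, high-fat diet), sampled in 3 wild-type (WT) libraries and in 4 libraries labelled KO, from mice with a PD-L1 knockout specific to fat. The other was the transplanted E0771 mammary tumour, a mouse breast cancer line, grown in the 2 kinds of host with 3 tumours in each. The tumour cells came from a single line and were not themselves targeted. The promoter or method that restricts the knockout to fat, the age and the sex of the mice, the diet of the tumour hosts and whether each library came from its own animal are not given in the sources used here. A p-value therefore sets a difference against the spread among libraries, which may be technical.

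Dividing cells pass a fixed order of steps. Cyclin D kinases and then cyclin E kinase release E2F factors from the retinoblastoma protein, and E2F switches on the genes that build the replication machinery. Origins are licensed by loading of the MCM helicase, forks copy the genome with polymerases held by the PCNA clamp, and the cell then enters mitosis through cyclin A, cyclin B and Cdk1 under the transcription factors B-Myb and FoxM1. The checkpoint kinases hold anaphase until every chromosome is attached, and Cdc20 then directs the destruction of cyclin B. In adult fat most mature adipocytes do not divide, while macrophages, progenitors and vessel cells of the same depot can, and a growing tumour holds many cells in cycle. These genes therefore serve as a readout of how much cycling a tissue holds. In whole tissue, fewer cycling cells and less RNA per cycling cell cannot be told apart.

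Cd274, which encodes PD-L1, had normalised values in fat of 548, 521, 564 and 543 in the libraries labelled KO and 504, 739 and 528 in WT. The log2 fold change was -0.10 ± 0.15 (SE), with an adjusted p of 0.66 in limma. The KO values lay inside the WT range, so every direction given here rests on the labels. The fat libraries held 29362788 to 41534662 gene reads and the tumour libraries 22834259 to 34706555. Fat carried the adipocyte genes Adipoq, Plin1, Lep and Cidec, each of which was below 10 reads in every tumour. Other adipocyte genes of the same list were present in tumours. Pparg, Fabp4 and Lipe lay between 190 and 501 normalised reads in every tumour, and Slc2a4 reached at most 43.0. Tumours carried the epithelial keratin gene Krt8 at 9474 ± 951 normalised reads (SD, n = 3, WT hosts), while Krt18, Epcam, Krt14 and Krt5 reached at most 107, 81.5, 196 and 94.3 in any tumour. WT fat libraries are named by their column numbers 1, 3 and 4, which do not carry the label numbers.

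Promoters of 8 members are shown because the 2 classes carry different short sequences next to their starts. They come from RefSeq on GRCm38.p6 and run from 250 bases before to 50 bases after a gene's start, written 5′ to 3′ along the gene. Capitals mark every match, on either strand, to the cell cycle homology region (CHR, TTTGAA), to the CCAAT box bound by NF-Y (CCAAT) or to an E2F site. The E2F site was searched as TTCCCGC and in the related forms that begin alike, namely TTGGCGC as one form, then TTCGCGC as another, and last the form spelled TTGCCGC. The windows are Cdk1 at chr10:69352863-69353162 on the minus strand, Cdc20 at chr4:118437294-118437593 on the minus strand, Ccnb1 at chr13:100786437-100786736 on the minus strand, Birc5 at chr11:117848987-117849286 on the plus strand, Mcm5 at chr8:75109259-75109558 on the plus strand, Mcm6 at chr1:128359656-128359955 on the minus strand, Ccne1 at chr7:38107441-38107740 on the minus strand and E2f1 at chr2:154569377-154569676 on the minus strand.
Cdk1: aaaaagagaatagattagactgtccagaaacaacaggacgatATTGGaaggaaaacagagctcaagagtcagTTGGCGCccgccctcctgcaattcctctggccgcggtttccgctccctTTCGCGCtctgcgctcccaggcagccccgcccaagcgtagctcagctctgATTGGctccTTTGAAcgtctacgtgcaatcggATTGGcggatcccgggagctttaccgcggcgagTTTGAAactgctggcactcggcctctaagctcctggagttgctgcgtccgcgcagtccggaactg
Cdc20: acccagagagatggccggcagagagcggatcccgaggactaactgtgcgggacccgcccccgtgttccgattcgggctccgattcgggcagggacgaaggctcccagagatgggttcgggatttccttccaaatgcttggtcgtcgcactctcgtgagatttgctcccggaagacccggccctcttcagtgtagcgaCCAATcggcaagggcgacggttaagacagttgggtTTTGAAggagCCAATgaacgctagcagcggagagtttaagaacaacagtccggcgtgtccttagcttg
Ccnb1: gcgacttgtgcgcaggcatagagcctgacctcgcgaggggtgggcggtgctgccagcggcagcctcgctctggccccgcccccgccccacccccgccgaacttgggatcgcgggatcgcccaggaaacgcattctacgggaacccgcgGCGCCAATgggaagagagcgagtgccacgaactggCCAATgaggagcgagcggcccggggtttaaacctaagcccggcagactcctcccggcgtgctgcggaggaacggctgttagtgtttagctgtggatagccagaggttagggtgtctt
Birc5: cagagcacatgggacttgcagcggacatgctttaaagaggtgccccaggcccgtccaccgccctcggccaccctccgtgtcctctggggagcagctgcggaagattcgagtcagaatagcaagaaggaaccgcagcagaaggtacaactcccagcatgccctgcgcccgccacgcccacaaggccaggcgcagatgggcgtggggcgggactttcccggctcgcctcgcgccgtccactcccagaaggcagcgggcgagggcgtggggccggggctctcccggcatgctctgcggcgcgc
Mcm5: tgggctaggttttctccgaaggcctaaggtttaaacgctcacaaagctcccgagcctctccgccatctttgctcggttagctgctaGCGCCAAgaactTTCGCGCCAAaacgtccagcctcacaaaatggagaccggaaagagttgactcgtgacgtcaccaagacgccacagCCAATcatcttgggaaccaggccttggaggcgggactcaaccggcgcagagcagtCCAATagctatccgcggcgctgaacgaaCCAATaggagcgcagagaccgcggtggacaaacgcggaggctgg
Mcm6: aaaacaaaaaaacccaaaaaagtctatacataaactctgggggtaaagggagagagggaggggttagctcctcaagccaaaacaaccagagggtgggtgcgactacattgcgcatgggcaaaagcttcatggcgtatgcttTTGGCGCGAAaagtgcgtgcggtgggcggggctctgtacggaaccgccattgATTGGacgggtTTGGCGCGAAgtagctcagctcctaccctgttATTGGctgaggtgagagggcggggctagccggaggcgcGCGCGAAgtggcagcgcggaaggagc
Ccne1: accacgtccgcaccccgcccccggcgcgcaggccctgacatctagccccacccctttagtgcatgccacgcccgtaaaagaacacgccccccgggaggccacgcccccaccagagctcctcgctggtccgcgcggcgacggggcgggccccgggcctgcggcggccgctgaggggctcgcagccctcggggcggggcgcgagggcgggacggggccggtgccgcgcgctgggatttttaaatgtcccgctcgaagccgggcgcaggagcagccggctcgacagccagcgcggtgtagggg
E2f1: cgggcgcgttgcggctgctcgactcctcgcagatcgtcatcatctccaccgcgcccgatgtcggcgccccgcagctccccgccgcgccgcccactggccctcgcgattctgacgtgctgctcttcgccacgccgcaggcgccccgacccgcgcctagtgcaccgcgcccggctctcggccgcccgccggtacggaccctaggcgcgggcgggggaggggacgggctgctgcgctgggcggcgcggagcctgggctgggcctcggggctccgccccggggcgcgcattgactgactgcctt
Counted from the start, with -1 the base before it, Cdk1 has the CHR letters at -71 and -15, each with a CCAAT match on the minus strand in front of it at -80 and -48. It also has a CCAAT match at -208 and E2F matches at -178 and -130. Cdc20 has the CHR letters at -18 between CCAAT matches at -53 and -8. Ccnb1 has 2 CCAAT matches, at -99 and -67, and no CHR letters, and the first of them runs into an E2F match on the other strand. Mcm5 has an E2F match at -164 and 2 that overlap on opposite strands at -152 and -149, and Mcm6 has overlapping pairs that begin at -109 and -46 and a further E2F match at 25. Both also hold CCAAT matches, at -77, -22 and 7 in Mcm5 and at -57 and -14 in Mcm6. The windows of Birc5, Ccne1 and E2f1 hold none of these letters.

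Promoters were found in that table for 32 of the 38 members, as 34 windows, and Mcm4, Aurkb, Ccne2, Foxm1, Ccna2 and Kif20a had none. The CHR letters were in 10 of 15 G2/M windows (66.7%) and in 3 of 19 S-phase windows (15.8%), against 17.9% of all 32851 promoters of the same length. E2F letters went the other way, with 12 of 19 S-phase windows (63.2%) and 3 of 15 G2/M windows (20%), against 9.57% of all promoters. CCAAT letters were in 86.7% of G2/M and 68.4% of S-phase windows, against 37.4% of all. All 13 member windows with CHR letters also held CCAAT letters, a pair found in 6.95% of all promoters. A match is a description of the letters and not a site of binding. In 28 of the 34 windows the RefSeq start lay within 100 bases of the gene's 5′ end in the GENCODE annotation. The windows beyond that limit were all of S-phase genes. They were those of Pcna, E2f1, Cdc6 and Mcm7 and 1 window of Uhrf1, with starts 134 to 1156 bases inside the gene. The start used for E2f1 lay 466 bases inside the gene, so that its window is not the promoter of the GENCODE start. The 19 S-phase windows came from 17 genes, since Mcm7 and Uhrf1 had 2 each, all with E2F letters.

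In visceral fat the cell cycle genes were higher in the KO libraries on the whole, and the genes of DNA copying carried the firmest calls. Of the 38 members, 14 passed an adjusted p of 0.05 in limma as higher in KO (36.8%) and 0 as lower, against 16.8% of all 14455 tested genes that rose and 17.4% that fell. The clamp Pcna, the helicase subunit Mcm6 and the ribonucleotide reductase subunit Rrm1 rose in the fit of all 7 libraries and in each fit that left out 1 library. The count of 14 was 4 without KO 1, 3 without KO 2, 8 without KO 4 and 23 without WT column 1, and 9 with edgeR on the recovered reads. The proliferation markers Mki67 and Top2a did not pass (adjusted p = 0.161 and 0.0878). The median log2 fold change over the members was 1.00, against 0.00 over all tested genes, and 36 of the 38 were above 0. Values are reads divided by a size factor of the library, and fold changes compare means of log2(value + 1), KO minus WT, which is not the same as a ratio of means. They are given below as the log2 fold change ± its SE. Every KO library lay above every WT library for 25 members (65.8%, against 21.6% of all genes), and below for 1, Cdc45 (22.1% of all genes).

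**Figure D1:**
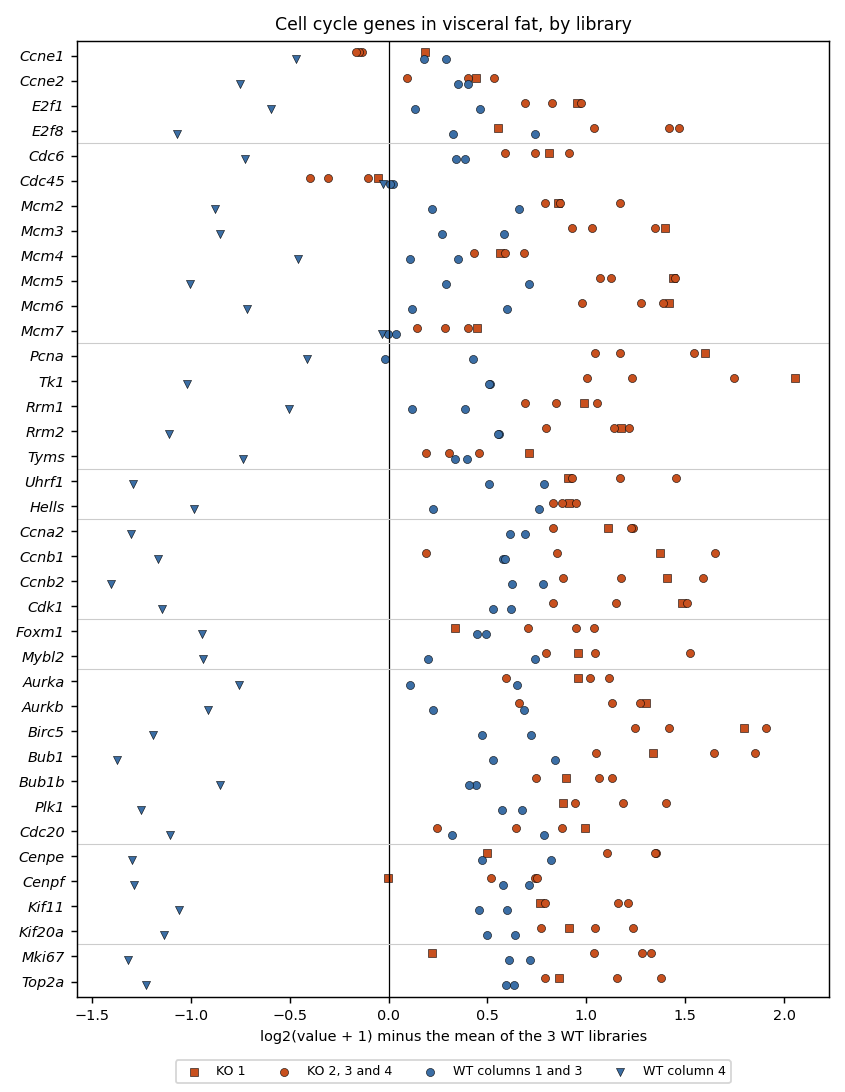
Each row is a member, ordered by role with grey lines between roles, and each point a fat library, with the x axis giving log2(value + 1) minus the mean of the 3 WT libraries. WT column 4 (triangles) is the lowest WT library in all 38 rows, and the KO libraries (orange) lie to the right of WT columns 1 and 3 in most rows.

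WT column 4 was the lowest of the 3 WT libraries for all 38 members and the lowest of all 7 libraries for 37. The median difference of the members from the WT mean was -0.99 in that library (log2), 0.54 in column 1 and 0.48 in column 3, and 0.79 to 1.24 in the KO libraries. The depth of WT column 4 lay within the range of the others, at 32373335 gene reads. The KO libraries thus differed less from WT columns 1 and 3 than WT column 4 did. Without WT column 4 the median log2 fold change of the members was 0.47, and 12 rose (31.6%, against 14.1% of all 14300 genes tested in that fit), 11 of them among the 14. The number of members below 0 went from 2 to 4. KO 3 was the lowest KO library for 27 members and KO 2 the highest for 25.

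Among the S-phase cyclins and E2F factors, 1 of 4 members rose (25%, against 16.8% of all genes). E2f1 encodes an activating E2F factor, and its values were 1249.6, 1268, 1042 and 1146 in KO libraries 1 to 4 and 890.4, 708 and 428 in WT columns 1, 3 and 4. Every KO value lay above every WT value (0.86 ± 0.23, adjusted p = 0.0211). The call ended without KO 2 or WT column 3 (adjusted p up to 0.058), and the log2 fold change was 0.56 without WT column 4 (adjusted p = 0.027). E2f8, a repressive E2F that is itself induced in S phase, had values of 192, 364, 269.7 and 351 against 219, 164 and 61.9 in the same order (1.12 ± 0.42, adjusted p = 0.0719). Ccne1 and Ccne2 encode the E cyclins that start S phase, and they did not follow E2f1. The values of Ccne1 were 293, 234, 232 and 229.8 against 315, 292 and 186, with KO inside the WT range and a log2 fold change of -0.07 (95% confidence interval -0.55 to 0.42, adjusted p = 0.836). Ccne2 had 343, 366, 269.7 and 334 against 334, 322 and 149.5 (0.37 ± 0.28, adjusted p = 0.345), and -0.01 without WT column 4. An interval of -0.28 to 1.02 for Ccne2 leaves room for the size seen in E2f1. That of Ccne1 ends below the E2f1 estimate but overlaps the E2f1 interval of 0.33 to 1.38. The difference between these genes was not tested.

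The origin licensing and helicase genes rose in 4 of 8 cases (50%, against 16.8% of all genes). The 6 subunits of the MCM ring are present in equal number in each helicase, yet their values differed. Mcm6 had 3124, 3062, 2305 and 2831 in KO libraries 1 to 4 and 1774, 1268 and 710.4 in WT columns 1, 3 and 4. No KO library reached down to a WT library, and the difference was the firmest of the ring (1.26 ± 0.28, adjusted p = 0.00952). It was 0.91 without WT column 4 (adjusted p = 0.0101), and the adjusted p was at most 0.0316 with any library left out. Mcm5 had 1808, 1820.0, 1403 and 1458 against 1093, 818 and 333 in the same order (1.27 ± 0.36, adjusted p = 0.0251). Mcm3 had 2175, 2097, 1568 and 1682 against 1234, 993 and 456 (1.18 ± 0.31, adjusted p = 0.0206). Both kept their KO values above all WT values, both calls ended without KO 1 or KO 2 (adjusted p up to 0.0659 and 0.0565), and without WT column 4 the log2 fold changes were 0.77 and 0.75. Mcm4 rose by a smaller step, with 1279, 1388, 1165 and 1299 against 1104, 930.3 and 629 (0.57 ± 0.19, adjusted p = 0.0453), a call that held in only 1 of the 7 fits with a library left out, the one without WT column 1 (adjusted p up to 0.111, and 0.0967 without WT column 4).

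The other members of this role did not pass. Mcm2 had 1035, 1286, 989.7 and 1042 against 903, 665 and 310.4 (0.92 ± 0.32, adjusted p = 0.0543). Mcm7 had the tightest WT values of the ring, 875, 849, 710.0 and 784 against 659, 642 and 627 (0.32 ± 0.12, adjusted p = 0.0652), and WT column 4 did not stand apart there. Exons of Mcm7 overlap those of Ap4m1 and Cops6 on the opposite strand and of Mir25 and Mir93 on its own strand. The strand setting of the counting is not given in the sources used here, so part of the Mcm7 reads may belong to neighbours. Cdc6 loads the ring onto origins and had 205, 220.1, 176 and 196 against 148, 153 and 70.1, with no overlap between groups (0.76 ± 0.28, adjusted p = 0.0664). Cdc45 joins the ring to make the active helicase and was the exception among all 38 members. Its values were 376, 316, 297 and 364 against 397, 392 and 383, so that every KO library lay below every WT library and WT column 4 did not stand apart. The log2 fold change of Cdc45 was -0.21 (95% confidence interval -0.53 to 0.10, adjusted p = 0.26), and -0.23 without WT column 4, and the whole interval lies below the value of Mcm6.

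The fork clamp and nucleotide supply genes rose in 3 of 5 cases (60%, against 16.8% of all genes). Pcna encodes the ring that holds the polymerase on DNA. Its values were 2688, 2592, 1827 and 2000.4 in KO libraries 1 to 4 and 1195, 878 and 666 in WT columns 1, 3 and 4. The lowest KO library was above the highest WT library by more than the whole WT range, and the log2 fold change was 1.34 ± 0.22 (95% confidence interval 0.84 to 1.84, adjusted p = 0.00297). Without WT column 4 it was 1.13 (adjusted p = 0.00698). Rrm1 encodes the large subunit of ribonucleotide reductase, which makes deoxynucleotides. It had 2596, 2710.0, 2113 and 2354 against 1711, 1418 and 921 in the same order, again with no overlap (0.89 ± 0.20, adjusted p = 0.0113), and 0.64 without WT column 4. Rrm2, the small subunit that is made in S phase, had 727, 749.8, 560.2 and 710.5 against 475, 473 and 148 (1.08 ± 0.38, adjusted p = 0.0583). It was the 1 member that passed without WT column 4 and not with it (log2 fold change 0.53, adjusted p = 0.0412). Tk1, the thymidine kinase of S phase, had 649, 524, 312 and 366 against 222, 221 and 76.3 (1.51 ± 0.41, adjusted p = 0.0228), with KO 1 far above KO 3. That call ended without KO 1 or KO 2 (adjusted p up to 0.0619), and the log2 fold change was 1.00 without WT column 4. Tyms, the thymidylate synthase, had overlapping groups, 379.7, 319, 287 and 265 against 293, 306 and 139 (0.42 ± 0.29, adjusted p = 0.289), and 0.05 without WT column 4. A pseudogene of Tyms has its own row, so reads may be shared between both.

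Of the 2 genes of chromatin copying neither passed. Uhrf1 carries DNA methylation over to the new strand, and Hells is a remodeller of methylated chromatin. Uhrf1 had 577, 843, 585 and 693 against 529.9, 437 and 125 (1.11 ± 0.45, adjusted p = 0.0863) and Hells 329, 311, 321 and 337 against 295, 203 and 87.6 (0.89 ± 0.36, adjusted p = 0.0841). In both genes every KO value lay above every WT value, and the 4 KO values of Hells were close to each other.

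**Figure D2:**
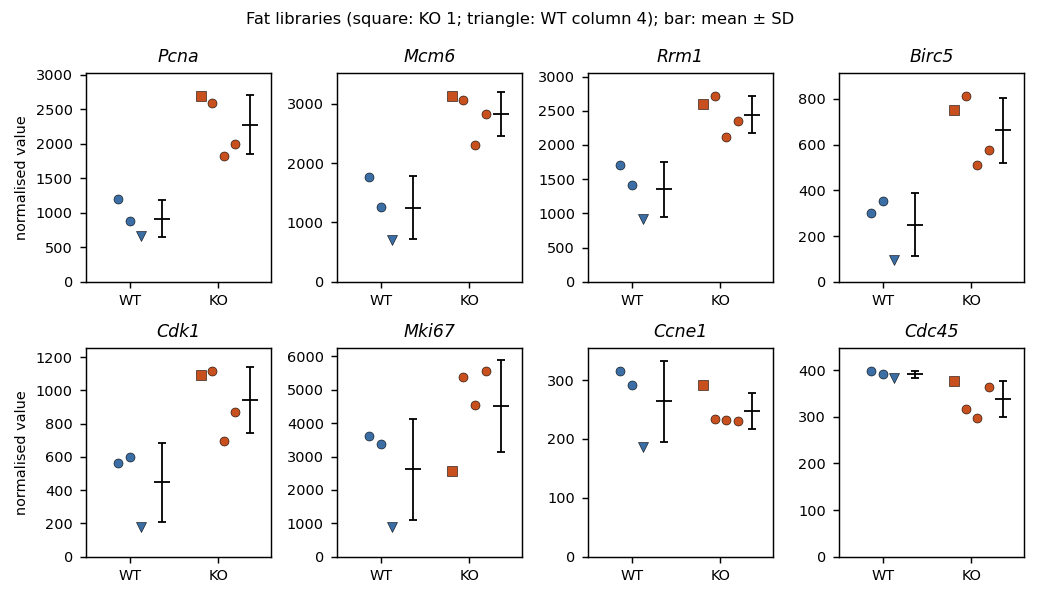
Normalised values of 8 members in each fat library, WT left and KO right, with the group mean and SD as a bar beside the points and a y axis from 0. KO and WT points are apart for Pcna, Mcm6, Rrm1, Birc5 and Cdk1, they overlap for Mki67 and Ccne1, and the KO points lie below the WT points for Cdc45.

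Cyclins A and B with their kinase rose in 1 of 4 cases (25%, against 16.8% of all genes). Cdk1, the kinase that drives mitosis, had 1094, 1114, 696 and 869.7 in KO libraries 1 to 4 and 563, 602 and 176 in WT columns 1, 3 and 4. The groups did not overlap (1.24 ± 0.41, adjusted p = 0.0454), and WT column 4 was far below the other WT columns. The call ended without KO 1, KO 2 or KO 4 (adjusted p up to 0.108), and the log2 fold change was 0.67 without WT column 4 (adjusted p = 0.0448). Ccna2, Ccnb1 and Ccnb2 encode its cyclins. Ccna2 had 1299, 1419, 1070.5 and 1409.8 against 970.4, 923 and 243 (1.10 ± 0.44, adjusted p = 0.0841). Ccnb2 had 591, 671, 409 and 503 against 342, 382 and 83.5 (1.26 ± 0.49, adjusted p = 0.0758). Ccnb1 was low and spread widely, with 172, 209, 75.4 and 119.9 against 98.9, 99.8 and 28.9, and its lowest KO value lay among the WT values (1.02 ± 0.50, adjusted p = 0.151). The mitotic transcription factors did not pass either. Foxm1 had 497, 807, 641 and 759 against 537, 554 and 204 (0.76 ± 0.35, adjusted p = 0.128), with KO 1 below 2 of the WT libraries. Mybl2, which encodes B-Myb, had 103, 152, 91.7 and 109 against 60.2, 88.0 and 26.8 and no overlap (1.08 ± 0.39, adjusted p = 0.0623).

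The mitotic kinases, checkpoint and exit genes rose in 5 of 7 cases (71.4%, against 16.8% of all genes). This was the highest count of the G2/M roles, in the role with the most genes. Without WT column 4 the count was 3 (against 14.1% of all genes in that fit). Birc5 encodes survivin, the subunit that places the Aurora B kinase complex on chromosomes. It had 752, 811, 512 and 576 in KO libraries 1 to 4 and 299, 355 and 93.8 in WT columns 1, 3 and 4. The groups were apart and the fold was the largest of the 38 members with all 7 libraries (1.59 ± 0.43, adjusted p = 0.0211). Without WT column 4 it was 1.00 (adjusted p = 0.0127), below Pcna and level with Tk1. The call of Birc5 ended without KO 1 or KO 2 (adjusted p up to 0.0589). Aurkb, the kinase of that complex, had 592, 580.4, 379 and 526 against 280.4, 386 and 127 in the same order (1.09 ± 0.35, adjusted p = 0.0433). Aurka, the kinase of spindle poles, had 368, 409.9, 285 and 383 against 297, 203 and 111 (0.92 ± 0.31, adjusted p = 0.0489). In both Aurora genes KO 3 lay below 1 WT library, and neither passed without WT column 4 (adjusted p = 0.0717 and 0.101). Their calls ended in 5 and 6 of the 7 fits that left out a library (adjusted p up to 0.103 and 0.116), and Aurkb held without KO 3 or WT column 3 and Aurka without WT column 1.

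Bub1 and Bub1b encode kinases of the spindle checkpoint, and both rose. Bub1 had 396, 566, 324 and 492 in KO libraries 1 to 4 and 281, 226 and 59.8 in WT columns 1, 3 and 4 (1.47 ± 0.49, adjusted p = 0.047). Bub1b had 825, 969, 743 and 924 against 601, 587 and 244 (0.96 ± 0.30, adjusted p = 0.0389). Groups did not overlap for either gene, and without WT column 4 the log2 fold changes were 0.78 and 0.53 (adjusted p = 0.0441 and 0.031). The call of Bub1 held only without WT column 1 or WT column 4, and that of Bub1b only without one of the WT columns (adjusted p up to 0.113 and 0.0956). Plk1, the polo kinase of mitotic entry, had 252, 361, 262 and 310.4 against 203, 218 and 56.7 (1.10 ± 0.44, adjusted p = 0.0832). Cdc20, which activates the ligase that ends mitosis, had 334, 309, 199 and 263 against 209.9, 289.6 and 77.3 (0.69 ± 0.42, adjusted p = 0.23), with KO 3 and KO 4 below WT column 3.

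None of the 4 kinetochore and motor genes passed. Kif11, the motor that pushes spindle poles apart, had 765, 1041, 777 and 1004 against 618, 682 and 216 (0.98 ± 0.37, adjusted p = 0.072). Kif20a, a motor of cytokinesis, had 735, 920.2, 666 and 806 against 608, 551 and 177 (0.99 ± 0.39, adjusted p = 0.0818). Both kept every KO library above every WT library. In the kinetochore genes KO 1 lay among the WT libraries. Cenpe had 467, 845, 710.0 and 842 against 585, 459 and 134 (1.07 ± 0.47, adjusted p = 0.111). Cenpf had 403, 675, 579 and 679 against 604, 660.3 and 165 (0.50 ± 0.46, adjusted p = 0.424), and -0.14 without WT column 4.

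Mki67, the gene of the Ki-67 antigen that coats mitotic chromosomes, had 2569, 5378, 4539 and 5549 in KO libraries 1 to 4 and 3620.0, 3364 and 885 in WT columns 1, 3 and 4. KO 1 was lower than WT columns 1 and 3, and the other 3 KO libraries were higher than every WT library (0.97 ± 0.49, adjusted p = 0.161, 95% confidence interval -0.16 to 2.09). Without WT column 4 the log2 fold change of Mki67 was 0.31 (adjusted p = 0.475). Top2a, the topoisomerase that untangles sister chromosomes, had 2484, 3554, 2364 and 3041 against 2122, 2062 and 585 with no overlap (1.04 ± 0.42, adjusted p = 0.0878). KO 1 was the lowest KO library for 8 members, E2f8, Uhrf1, Foxm1, Plk1, Cenpe, Cenpf, Kif11 and Mki67. Their merged exons had a median length of 6.61 kb against 4.15 kb for the other members. In KO 1 the members' log2 deviations from the KO mean had a Pearson's r of -0.52 with log2 exon length over the 38 members and of -0.57 over 10624 genes, a description of points that share 1 library. Over the members r was 0.46 in KO 3 and 0.39 in KO 4, and in the tumours -0.45 in WT 1 and 0.55 in WT 3. Deviations from a group mean cancel out within the group. A negative r in 1 library therefore goes with positive ones in others of its group, and these values are not independent of each other. What length has to do with these values was not tested.

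**Figure D3:**
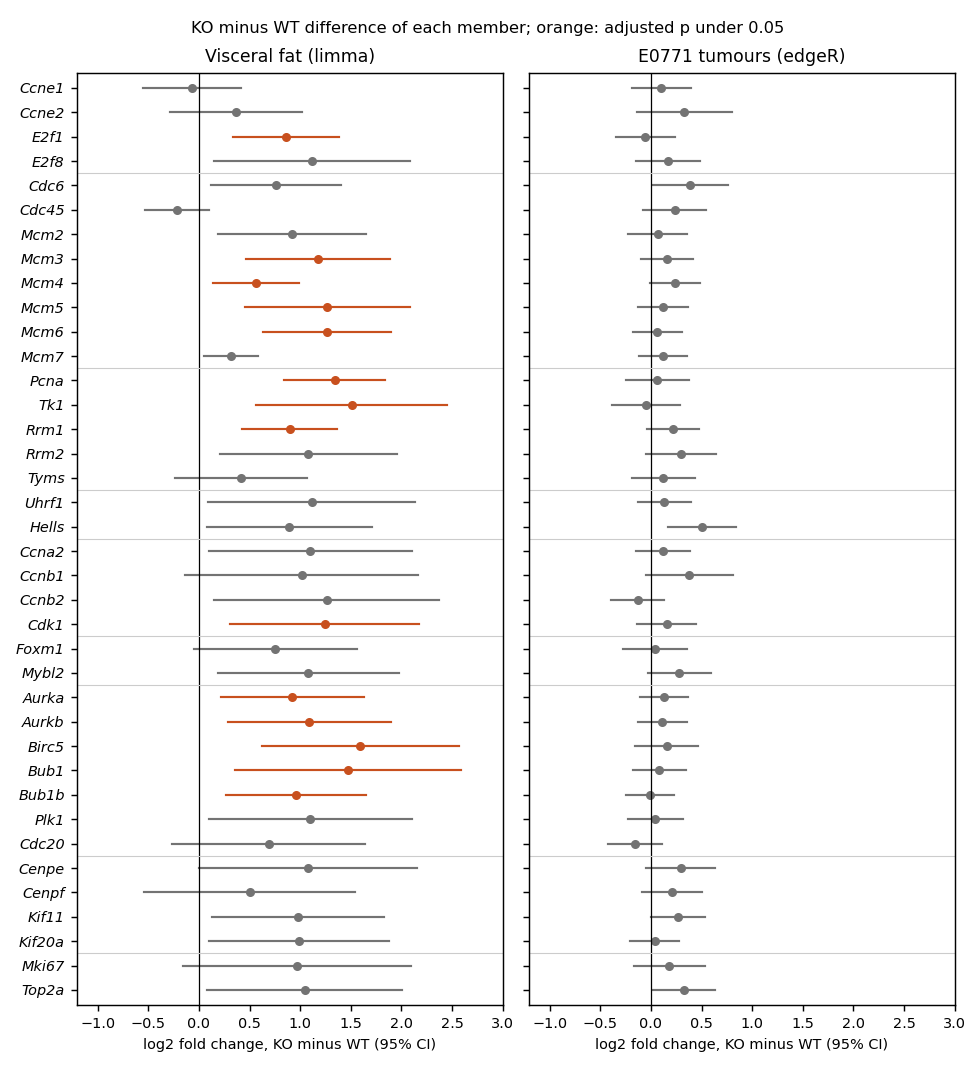
Log2 fold change, KO minus WT, of each member with its 95% confidence interval, in visceral fat on the left and in the tumours on the right, on the same x scale, orange where the adjusted p was under 0.05. In fat 14 members are orange and the intervals are wide, and in the tumours none is orange and the intervals are narrow around a median of 0.13.

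The 2 classes had similar medians in fat. In the S-phase class 8 of 19 members rose (42.1%) with a median log2 fold change of 0.89. In the G2/M class 6 of 19 rose (31.6%) with a median of 1.04. The share over all genes was 16.8%. Without WT column 4 the medians were 0.48 and 0.45, with 8 and 4 that rose. Median differences from the WT mean in KO 1 to 4 were 0.91, 1.05, 0.79 and 0.87 for the S-phase class and 0.96, 1.28, 0.79 and 1.15 for the G2/M class. WT column 4 lay further down in the G2/M class (-1.17) than in the S-phase class (-0.73), and the difference between the classes was not tested.

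Beyond the members, 110 other cell cycle genes were listed by function. In fat 33 of them rose (30.0%, against 16.8% of all genes) and 4 fell (3.64%, against 17.4%), with a median log2 fold change of 0.73, and without WT column 4 the count that rose was 30, of which 24 were among the 33. It was 14 without KO 2, 18 without KO 4 and 54 without WT column 1, and the count that fell was 2 without KO 2 or without WT column 3. Replication genes rose in 15 of 31 cases (48.4%) and none fell. Chaf1b, a subunit of the histone chaperone that packs new DNA, had 340.0, 303, 273 and 285 in KO libraries 1 to 4 and 167, 90.0 and 70.1 in WT columns 1, 3 and 4 (1.55 ± 0.28, adjusted p = 0.00449). Pold1, the catalytic subunit of polymerase delta, had 749.5, 876, 841 and 856 against 505, 562 and 378 (0.80 ± 0.16, adjusted p = 0.00578). KO and WT did not overlap in either gene, and both calls held with any 1 library left out. Mitosis genes had a median log2 fold change of 1.00, against 0.61 for replication, and 35 of 36 were above 0. Every KO library lay above every WT library for 24 of them (against 21.6% of all genes). Without WT column 4, 11 rose (against 14.1% of all genes). With all 7 libraries 6 of the 36 rose (16.7%), a share close to that of all genes. They included Incenp, the scaffold of the Aurora B complex, with 1453, 1779, 1646 and 1896 against 1002, 710.2 and 386 (1.37 ± 0.28, adjusted p = 0.0076), and the phosphatase Cdc25b, with 915, 1008, 817 and 1004 against 676, 678 and 498 (0.61 ± 0.15, adjusted p = 0.0156). Checkpoint and repair genes of S phase rose in 5 of 13 cases (38.5%). Rad54l, a recombination motor, had 203, 273, 192 and 236 against 83.4, 91.0 and 48.5 (1.63 ± 0.26, adjusted p = 0.00266), and Fanci of the Fanconi pathway had 157, 214, 168 and 180.4 against 107, 85.1 and 32.0 (1.41 ± 0.38, adjusted p = 0.0219), a call that ended without KO 2 or KO 4 (adjusted p up to 0.0616).

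Of 12 genes of G1 entry, 4 rose (33.3%) and 2 fell (16.7%, close to the share of all genes). Cdk4, the kinase partner of D cyclins, had 3931, 3926, 2974 and 3203 in KO libraries 1 to 4 and 2324, 2045 and 1764 in WT columns 1, 3 and 4 (0.78 ± 0.15, adjusted p = 0.00538). Ccnd3, which encodes cyclin D3, moved the other way, with 1959, 1568, 1909 and 1789 against 3189.8, 3730.1 and 2947 (-0.86 ± 0.13, adjusted p = 0.00212). Neither gene had overlapping groups and both calls held with any 1 library left out. Ccnd1, Myc and Cdc25a made up the other rises and Ccnd2 the other fall, named after their values were seen, with log2 fold changes of 0.69, 1.04, 0.70 and -0.75. Of 18 brakes, 3 rose (16.7%, again close to the share of all genes) and 2 fell (11.1%). Cdkn2c encodes the Cdk4 and Cdk6 inhibitor p18, and it had 2211, 1468, 1950.3 and 1505 against 4106, 4654 and 5529 (-1.43 ± 0.18, adjusted p = 0.00132). Wee1, the kinase that holds Cdk1 inactive, had 1215, 1432, 689 and 724 against 363, 439 and 316 (1.38 ± 0.28, adjusted p = 0.00645). Also named after their values were seen, Rb1, the retinoblastoma gene, had a log2 fold change of -0.48, E2f4 0.38 and Gadd45a 0.78. The 7 calls named after their values were seen each ended when some 1 library was left out. That of Myc ended without WT column 3 and that of Rb1 without KO 2, WT column 3 or WT column 4 (adjusted p up to 0.0582 and 0.0719). Those of Cdc25a and E2f4 ended without KO 2, KO 4, WT column 3 or WT column 4, and that of E2f4 also without KO 3 (up to 0.0778 and 0.101). Those of Gadd45a, Ccnd1 and Ccnd2 ended without KO 1, KO 2, KO 4 or WT column 3, the first 2 also without WT column 4, Ccnd1 without KO 3 and Ccnd2 without WT column 1 (up to 0.106, 0.0987 and 0.11).

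Markers of other cell types moved beside these genes in fat. The summed value of 12 macrophage genes was 301189 to 454143 in KO and 53729.8 to 165711 in WT, all 12 rose, and WT column 4 was the lowest at 53729.8 against 88644 in column 3 and 165711 in column 1. The 3 WT libraries thus had the same order in the macrophage sum and in the S-phase median, while in the G2/M median column 3 was just above column 1. That order was not particular to macrophages. Neutrophil sums were 413, 321 and 164 in WT columns 1, 3 and 4, and germ cell sums 872, 444 and 207. The adipocyte sum had the same order by small steps, and the mesothelial sum ran in reverse (4626, 7592 and 8696). In the KO libraries the macrophage sum and the medians did not share an order. KO 1 had the highest macrophage sum at 454143, and KO 2 the highest medians, 1.05 for the S-phase and 1.28 for the G2/M class. KO 3 was the lowest KO library in the sum and in both medians. Adgre1 (Emr1 in the table) and Cd68 were 33034 and 36432 on average in KO, against 6083 and 6457 in WT. All 8 adipocyte genes fell, from a sum of 833255 to 844895 in WT to 264608 to 413690.0 in KO, and WT column 4 did not stand apart there. All 6 endothelial genes fell (39009 to 53122 in WT, 16712 to 29314 in KO). Of 7 progenitor and fibroblast genes 2 rose and 1 fell, with sums of 164082 to 194120.0 in KO and 96877 to 123246 in WT.

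Lymphoid, granulocyte and epithelial markers were low in all fat libraries, and mesothelial markers stood higher. Sums in KO and WT were 758 to 1233 and 600.5 to 925 for 9 T cell genes, of which 3 rose, 439 to 1158 and 379 to 1179.8 for 9 B and germinal centre genes, and 302 to 641 and 164 to 413 for 6 neutrophil genes, of which Mpo was below 10 everywhere. They were 2613 to 4820.3 and 4626 to 8696 for 6 mesothelial genes, of which 4 fell, and 119 to 274 and 175 to 625 for 5 epithelial genes. WT column 4 stood apart in the epithelial sum, with 625 against 119 to 274 in the other 6 libraries, and it had the highest mesothelial sum. Its Epcam value was 142, against at most 7.26 elsewhere. Germ cells lie next to some fat depots, and their 9 genes did not move together. Prm2, a sperm protamine gene, fell (adjusted p = 0.00161), with 282, 92.0 and 25.8 in WT columns 1, 3 and 4 and at most 1.08 in KO. Prm1, Tnp1 and Tnp2 were likewise lower in every KO library than in every WT library and were below the filter of the test. Sycp3, a gene of meiotic chromosomes, rose (2.02 ± 0.22, adjusted p = 0.000982) and made up nearly all of the KO sum of 762 to 1100.4. Ddx4 did not pass, and Sycp1, Stra8 and Dazl were below 10 in every library. No marker on these lists was at 0 in every fat library. The part of any of these cell types in the cell cycle values was not tested.

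**Figure D4:**
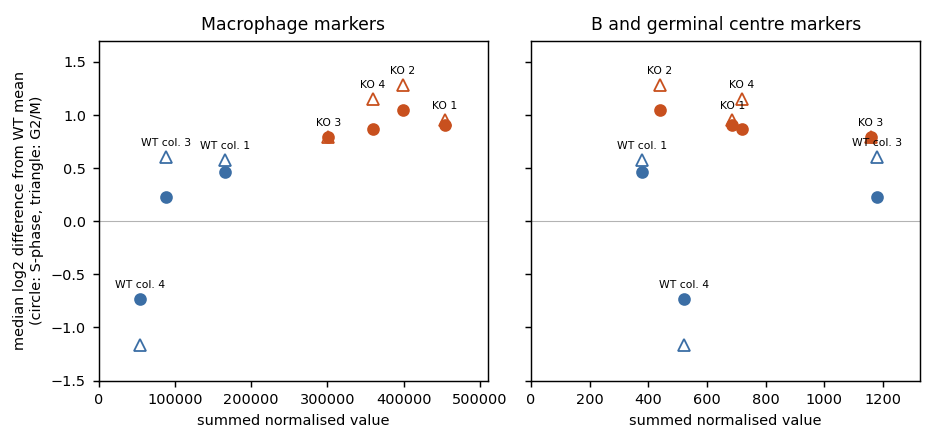
Median log2 difference of the members from the WT mean in each fat library (circles, S-phase class; triangles, G2/M class) against the summed normalised value of 12 macrophage genes on the left and of 9 B and germinal centre genes on the right, KO in orange and WT in blue. WT column 4 is lowest on both axes of the left panel, and on the right KO 3 and WT column 3 hold the highest B cell sums, KO 3 with the lowest class medians of the KO libraries.

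In the tumours none of the 38 members differed between hosts past the threshold. By edgeR, 0 were higher and 0 lower at that threshold, the same as among all 13109 tested genes (0.0% higher, 0.0% lower). The median log2 fold change was 0.13 against 0.00 over all genes, and 33 of the 38 were above 0. At an unadjusted p under 0.05 there were 4 members, all higher in KO hosts (10.5%), against 3.79% of all genes higher and 3.11% lower. Every KO tumour lay above every WT tumour for 8 members (21.1%, against 5.68% of all genes), namely Cdc6, Mcm4, Mcm7, Tyms, Hells, Mybl2, Aurka and Kif11, and below for 0 (4.93% of all genes). DESeq2, which called 47 genes higher and 12 lower in all, called 0 of the members too. The 95% confidence intervals were narrow, and over all 38 members the folds they allowed ran from 0.747 (Cdc20) to 1.79 (Hells).

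Values in the tumours are normalised read counts. Hells had the smallest p, with 1496, 2200.4 and 1876 in KO hosts and 1208, 1289.8 and 1431 in WT hosts (0.50 ± 0.15, unadjusted p = 0.00724, adjusted p = 0.552 in edgeR). Top2a had 13923, 17577 and 15183 in KO hosts and 11009.6, 11331 and 14818 in WT hosts, with WT 3 above KO 1 (0.33 ± 0.14, adjusted p = 0.709). Cdc6 had 643, 789 and 704 in KO hosts and 582, 429 and 618 in WT hosts and no overlap (0.39 ± 0.17, adjusted p = 0.712). Kif11 also had an unadjusted p under 0.05, at 0.27 ± 0.12 (adjusted p = 0.722). The markers of proliferation and the mitotic cyclins overlapped between hosts. Mki67 had 3158, 2752 and 3012 in KO hosts and 2376, 2169 and 3317 in WT hosts (0.18 ± 0.16, adjusted p = 0.855). Ccnb1 had 1005, 1655 and 1404 in KO hosts and 1247, 1017 and 853 in WT hosts (0.38 ± 0.20, adjusted p = 0.757) and Cdk1 5308, 7135 and 6108 in KO hosts and 6062, 5541 and 5034 in WT hosts (0.16 ± 0.13, adjusted p = 0.855). KO 2 was the highest tumour for both.

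Of the 19 S-phase members 5 had no overlap, as listed above, while the 3 replication genes given here did overlap. Mcm2 had 5797, 4830.3 and 5768 in KO hosts and 5217, 4488 and 5941 in WT hosts (0.07 ± 0.13, adjusted p = 0.939). Mcm5 had 7882, 7759.6 and 7314 in KO hosts and 7378, 6261 and 7516 in WT hosts (0.12 ± 0.11, adjusted p = 0.859). Rrm2 had 3691, 5497 and 4466 in KO hosts and 3973, 3123 and 3995 in WT hosts (0.30 ± 0.16, adjusted p = 0.757), with KO 2 again the highest. Of the 6 cyclin E, E2F and mitotic factor genes, E2f1 was the 1 below 0, and Mybl2 was the 1 without overlap (0.28 ± 0.14, adjusted p = 0.755). E2f8 stood at 0.17 and Ccne2 at 0.33 (log2). E2f1 had 2249, 2449 and 2309 in KO hosts and 2849.7, 2259.9 and 2165 in WT hosts (-0.05 ± 0.13, adjusted p = 0.949), Foxm1 5612, 4189 and 5191 in KO hosts and 4408, 4552 and 5626 in WT hosts (0.04 ± 0.14, adjusted p = 0.964) and Ccne1 1563, 1952 and 1654 in KO hosts and 1736, 1458 and 1621 in WT hosts (0.10 ± 0.13, adjusted p = 0.904). Below 0 were E2f1, Tk1, Ccnb2, Bub1b and Cdc20, with log2 fold changes from -0.16 to -0.01. WT 2 was the lowest of the 6 tumours for 24 members, and without it the median was 0.09 and 10 members were below 0. Of the 110 other cell cycle genes 108 were tested, 0 passed and the median was 0.09. The smallest p values by group were those of Pola1 and Cdc7 in replication (0.39 and 0.33), Kif15 and Hmmr in mitosis (0.33 and 0.31), Rbl1 and E2f7 in G1 entry (0.23 and 0.30), Gadd45a and Rb1 among brakes (-0.54 and 0.22) and Exo1 and Blm in repair (0.24 and 0.19), all log2 fold changes. Their adjusted p values ran from 0.627 to 0.855. Macrophage sums were 104870.0 to 125687 in KO tumours and 101514 to 122869 in WT tumours, and T cell sums 5947 to 12628 and 4499.6 to 6267, with KO 2 the highest. Of 9 T cell genes 8 had an unadjusted p under 0.05 in edgeR (905 of all 13109 genes), and 0 passed after adjustment. KO 2 also stood apart in other markers. Its neutrophil sum was 3048, against 80.1 to 620 in the other tumours, and it had the highest Krt14 and Krt5 values (196 and 94.3). The part of KO 2 in the member values was not tested.

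Levels were set per length, as reads per kilobase of merged exon scaled to the gene reads of the library (the RPKM scale), to compare members with each other. In WT fat the median member stood at 2.63 and in KO fat at 4.89, and in tumours of WT hosts at 28.7. The tables were normalised separately, so the step between tissues is a description with no test. It was 9.73-fold at the median from WT fat and 6.06-fold from KO fat. For 36 of the 38 members every tumour lay above every fat library. The exceptions were Mki67 and Pcna. Mki67 ranked behind Pcna and Mcm6 in WT fat, at 7.57 ± 4.28 (SD, n = 3), and reached 14.0 ± 4.26 (n = 4) in KO fat. In tumours of WT hosts it stood at 8.91 ± 2.16 (n = 3), rank 33 of the 38, so the ratio of tumour to fat was 1.18 for WT fat and 0.727 for KO fat. Top2a, which marks the same late phases, had a ratio of 9.17 to WT fat.

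Pcna was the highest member of fat, at 11.1 ± 2.81 in WT and 29.5 ± 5.12 in KO, and stood at 29.9 ± 5.40 in tumours of WT hosts. The level in KO fat thus lay within the spread of the tumours. At the other end Mybl2, Cdc20 and E2f8 had ratios of tumour to WT fat of 35.5, 33.8 and 32.6. In tumours of WT hosts Cdc20 was highest at 102 ± 9.67, followed by Ccna2 at 88.0 ± 3.82 and Ccnb2 at 82.4 ± 8.56, of which the last 2 do not differ beyond their spread. In tumours of KO hosts Ccna2 stood at 96.3 ± 13.02 and Cdc20 at 91.4 ± 7.39, the other order and within their spread. Within the MCM ring WT fat ranged from 2.61 for Mcm2 to 7.78 for Mcm6, and tumours of WT hosts from 21.8 for Mcm7 to 60.4 for Mcm5. Exons of Ccna2, Ccne2, Cdc20, Mcm7, Tk1 and Kif20a overlap another measured gene, on the opposite strand except for Mir25 and Mir93 at Mcm7. How such reads were counted is not given in the sources used here.

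**Figure D5:**
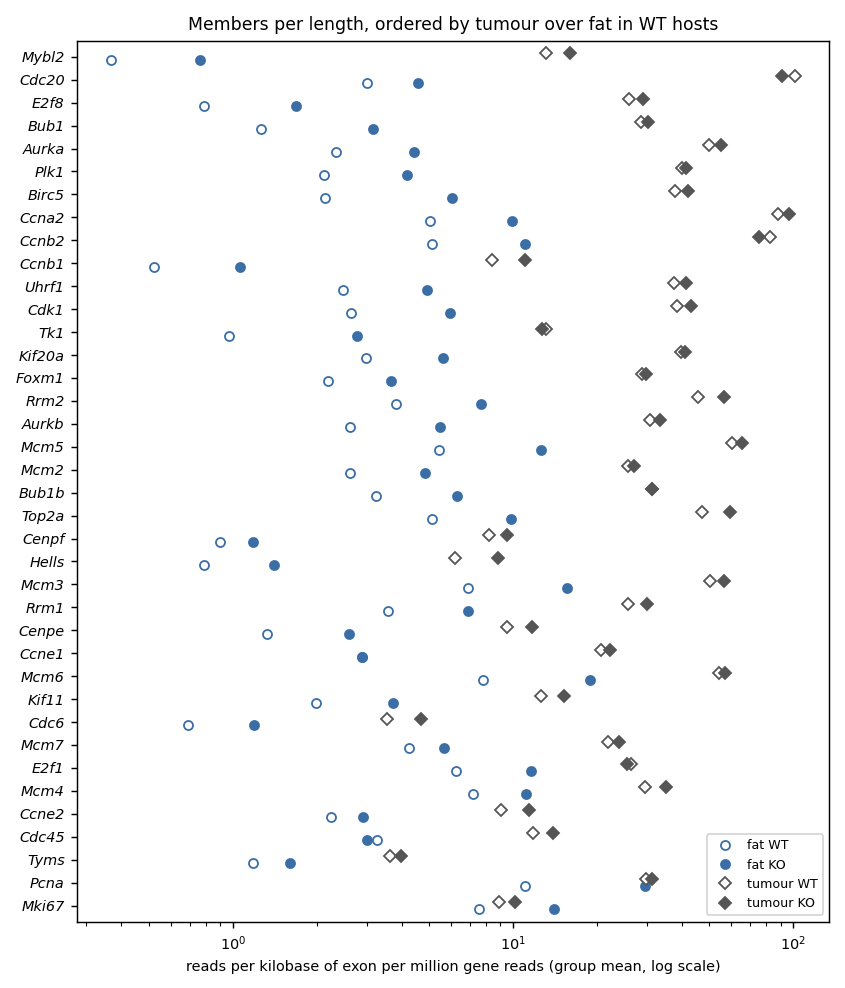
Level of each member per length, on the RPKM scale and a log axis, as group means in fat (circles) and tumours (diamonds), open for WT and filled for KO, in order of the ratio of tumour to fat in WT hosts. Fat and tumour symbols are far apart for Mybl2 and Cdc20 at the top and meet for Pcna (KO fat) and Mki67 at the bottom.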

How the data were processed

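Stranded mRNA libraries of 7 fat samples and 6 tumours were used, grouped by sample title. For the tumours the authors deposited a raw read count per gene. For fat they deposited a signal per gene, in which each column is read counts scaled by a factor of its own. All 117220 values above 0 were whole multiples of their column's step within 0.001. CASAVA, TopHat, DESeq2 and the build mm10 are named in the submitters' processing notes, without versions or roles, and the counting tool, annotation and strand setting are not given in the sources used here. Among the tumour rows, 5 summary lines that name no gene held 66.7% to 72.2% of entries (alignments at several places 59.1% to 63.8%) and were left out.

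Fat was tested with limma 3.58.1 (R 4.3.3, trend, log2(value + 1), values of 10 or more in at least 3 libraries, 14455 genes) and tumours with edgeR 4.0.16 (TMM, filterByExpr, quasi-likelihood, 13109 genes). Tests were two-sided with Benjamini-Hochberg adjustment over all genes and a threshold of 0.05. Both pipelines were run on simulated counts with the same noise setting for every gene and no outlying library. That run cannot show how calls behave with a library such as WT column 4 in fat. Normalised tumour reads are counts scaled by TMM library size. Exon lengths come from GENCODE M21 on GRCm38. The members, roles, lists and alternatives were chosen with earlier results of these data known. The text names every member in fat, 10 members by name plus those of smallest p in the tumours, and the 2 other cell cycle genes of smallest p in each functional group. Library pairs of a group differed beyond counting noise (chi-square per degree of freedom 23.1 to 223.6), so none was a duplicate.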

Additional observations from a re-analysis of the deposited data

Results flagged for a closer look

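Ccne1 in the KO fat library numbered 1 had a normalised value of 292.5, far from the other 3 KO libraries at 229.8 to 234.1. The gap was 0.931 of the group's range, above Dixon's 95% limit for 4 samples. It was the only 1 of 38 groups of 4 values with such a gap, where chance flags about 1 in 20.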

How the results depend on the processing

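In fat the number of members that rose was 14, and it was 9 with edgeR on recovered reads and 18 with DESeq2 on them. It ran from 3 (without KO 2) to 23 (without WT column 1) when 1 library was left out, with 4 without KO 1 and 8 without KO 4, and the cause was not tested. Pcna, Mcm6 and Rrm1 were called in every fit of fat, and 9 of the 14 in all 6 alternatives that kept every library. Of the other cell cycle genes 33 rose, with 14 (without KO 2) to 54 (without WT column 1) when 1 library was left out and 18 without KO 4, and 4 fell, with 2 (without KO 2 or WT column 3) to 5. With 1 library left out, log2 fold changes of 3 fat members changed sign at values near 0: Ccne1 ran from -0.30 to 0.078, Ccne2 from -0.0078 to 0.57 and Cenpf from -0.14 to 0.85. In the tumours 9 of the 38 did so, E2f1, Mcm2, Foxm1, Mcm6, Pcna, Tk1, Bub1b, Plk1 and Kif20a, within -0.15 to 0.22, with ranges of -0.13 to 0.071 for E2f1, -0.032 to 0.17 for Mcm2 and -0.059 to 0.16 for Foxm1. No alternative in the tumours called a member. Their replicate numbers were shared between hosts, and with a replicate block 0 members passed, while same-numbered tumours had correlations of -0.229, 0.012 and -0.22, so the numbers were not taken as pairs. No paired analysis was possible in fat because the WT columns do not carry the label numbers. The 7 fat and 6 tumour libraries limit the precision.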
